A study of Mus musculus with 2 samples.

Results

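The regions described here lay inside introns and were found with both the Etv4 and the Etv5 antibody. A region of the Etv4 list was taken as a member when it overlapped a region of the Etv5 list by 1 bp or more, when its midpoint lay more than 2 kb from every annotated transcript start, and when that midpoint was outside every exon and inside a gene. Of 13636 Etv4 regions, 5150 overlapped an Etv5 region, and 1704 of these were members (33.1%, 95% interval 31.8 to 34.4). The other overlapping regions comprised 1503 within 2 kb of a transcript start, 1845 in intergenic sequence and 98 in exons. Both libraries were made from EpRas, an H-Ras-transformed line derived from the mouse mammary epithelial line EpH4, grown in 4% fetal bovine serum. The cells of both had received TGF-β3 at 1 ng/ml for 1.5 h. Etv4 was precipitated with rabbit polyclonal and Etv5 with mouse monoclonal antibodies. Each antibody had 1 library from this 1 line, and neither untreated cells nor a library without a specific antibody were analysed here. No difference could therefore be set against a spread between replicates, and no p-value is given. The 95% interval given beside a share is the exact binomial one (Clopper-Pearson). It reflects counting error only and takes each region as independent, which neighbours are not. The lists held no read counts, so the depth is unknown.

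Etv4 and Etv5 belong to the PEA3 group of ETS transcription factors, which bind DNA through a GGAA core and act downstream of Ras and ERK signaling. Introns hold many enhancers, stretches of DNA at which several transcription factors bind and act on a promoter some distance away. AP-1, a dimer of Fos and Jun proteins, is another end point of Ras signaling, and its site often lies near ETS sites in such elements. TGF-β acts through Smad proteins and drives the epithelial-mesenchymal transition (EMT) of these cells.

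The first set of sequences shows the arrangement in which AP-1 and GGAA letters touched. The AP-1 pattern was TGACTCA or its reverse complement TGAGTCA. Its GGAA neighbour, preceded by A or C and followed by A or G, ended directly before it on the strand that reads GGAA. In 23 members the central 500 bp held this arrangement. Capitals mark the AP-1 pattern, the touching GGAA letters and any ETS pattern (CAGGAAGT or CCGGAAGT), whose last T can also be the first T of the AP-1 pattern. In 5 of the 23 the whole ETS pattern was completed in this way, and all 5 are printed with 3 others, chosen after their values were seen. The printed strand is the plus strand of mm10. Sites that read TGAGTCA or TGACTCA followed by a TTCC run are the same arrangement with GGAA on the minus strand. Smad3 transmits the TGF-β signal, Nedd9 is a focal adhesion scaffold, Ndst3 a heparan sulfate enzyme, Camta1 a calmodulin-binding transcription factor, Il1r1 the interleukin-1 receptor and Ank1 a spectrin-binding ankyrin.
Smad3, chr9:63721894-63721928: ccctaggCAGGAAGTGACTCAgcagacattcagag
Nedd9, chr13:41331992-41332026: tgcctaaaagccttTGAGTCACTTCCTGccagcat
Ndst3, chr3:123653101-123653135: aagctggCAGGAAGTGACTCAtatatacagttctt
F630040K05Rik, chr17:45777454-45777488: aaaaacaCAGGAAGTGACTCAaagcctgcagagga
B230208H11Rik, chr10:12919409-12919443: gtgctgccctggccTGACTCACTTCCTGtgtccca
Camta1, chr4:151634875-151634909: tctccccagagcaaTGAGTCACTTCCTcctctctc
Il1r1, chr1:40275525-40275559: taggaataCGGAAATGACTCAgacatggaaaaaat
Ank1, chr8:23038620-23038654: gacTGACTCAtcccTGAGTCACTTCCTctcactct

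The second set holds the members whose AP-1 and ETS patterns lay closest to each other without overlapping. Of the closest pairs, 5 with gaps from 2 to 11 bp are printed with 10 bases on each side. Both orders and both strands occurred among them. Tiam2 activates the GTPase Rac, Eps8 is an actin regulator phosphorylated by the EGF receptor, Atp2b3 is a calcium pump, Bcar1 (p130Cas) is a focal adhesion adaptor and Slx4ip binds the Slx4 nuclease scaffold.
Tiam2, chr17:3419697-3419733: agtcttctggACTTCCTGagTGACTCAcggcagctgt
Eps8, chr6:137559044-137559085: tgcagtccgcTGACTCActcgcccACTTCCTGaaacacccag
Atp2b3, chrX:73566689-73566732: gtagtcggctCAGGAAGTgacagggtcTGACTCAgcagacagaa
Bcar1, chr8:111726298-111726342: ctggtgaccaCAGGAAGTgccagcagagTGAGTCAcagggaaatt
Slx4ip, chr2:136921070-136921115: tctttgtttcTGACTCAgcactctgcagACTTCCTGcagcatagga

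Members were longer than the intronic regions of only 1 list. Their median length was 742 bp (quartiles 589.8 and 902 bp), against 516 bp for 2348 intronic Etv4 regions without an Etv5 region and 417 bp for 830 intronic Etv5 regions without an Etv4 region. The overlapping Etv5 regions had a median of 593 bp, and the common stretch had a median of 536 bp. Taken region by region, its median share was 73.6% of the Etv4 region and 98.4% of the Etv5 region. In 755 members (44.3%) the Etv5 region lay wholly within the Etv4 region. The midpoints were within 100 bp of each other in 1017 members (59.7%, 57.3 to 62.0) and within 250 bp in 1544 (90.6%). At the limits of the rule, the closest member lay 2003 bp from a start and the farthest region assigned to a promoter lay 1999 bp away. The smallest overlap was 4 bp, and 8 members overlapped by 50 bp or less. The members were chosen by overlap and position, so these values describe them and test nothing. A total of 104 members (6.10%) touched an exon although their midpoints did not.

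AP-1 letters were common at the centre of the members. Read on both strands, the pattern TGACTCA was present in 924 of 1704 central windows of 500 bp (54.2%, 51.8 to 56.6). The background was 1876015 windows of 500 bp, spaced 500 bp apart, that met the same rule of position and touched no region of either list. Of these, 7.92% held the pattern, a 6.84-fold difference. Against windows of the members' own GC content the fold was 6.55. A total of 253 members (14.8%) held 2 or more AP-1 matches, compared with 0.375% of windows, and 3 members held 4 or more. One of those lay in the first intron of Araf, which encodes a Raf kinase of the Ras pathway, and another in Camta1. The longer palindrome ATGACTCAT was found in 70 members (4.11%) and in 0.471% of windows.

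The share of members with TGACTCA was above that of the 4 other classes of regions examined. It was 46.7% (44.7 to 48.8) in Etv4-only intronic regions, 32.4% (29.2 to 35.7) in Etv5-only intronic regions, 48.6% (46.3 to 50.9) in shared intergenic regions and 27.2% (25.0 to 29.5) in shared promoter regions. The interval of the members overlapped none of these. Members and shared intergenic regions had close median lengths, 742 and 713 bp, whereas the regions of only 1 list were shorter. The part of region length in these shares was not tested. The longer palindrome did not set members apart in this way, at 4.11% (3.22 to 5.16) of members, 4.17% of Etv4-only intronic, 3.90% of shared intergenic and 3.86% of Etv5-only intronic regions. Shared promoter regions were lower, at 1.53%.

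**Figure D1:**
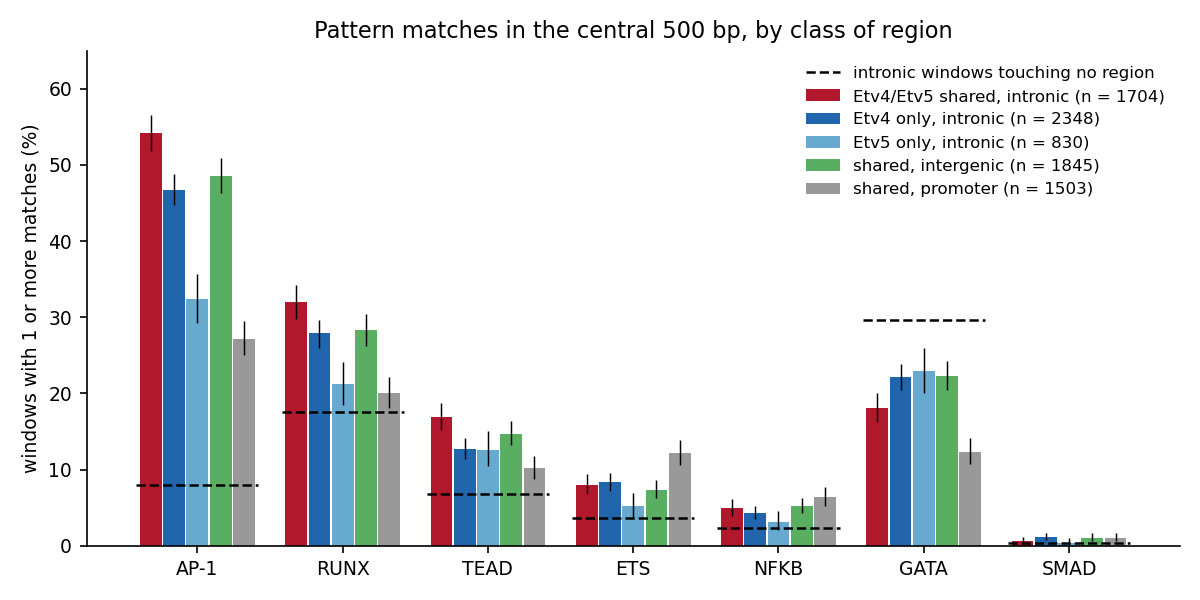
Share of central 500 bp windows with 1 or more matches to each pattern (vertical axis, %) in 5 classes of regions. Bars are shares, thin lines exact 95% binomial intervals, and dashed lines the share in 1876015 intronic windows touching no region. The AP-1 bar of the members, at 54.2%, is the highest, and the GATA bars lie below their dashed line.

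The ETS pattern was far less frequent. It was present in 136 members (7.98%, 6.74 to 9.37) and in 3.69% of windows, a 2.16-fold difference, or 1.74-fold at matched GC content. Etv4-only intronic regions had a share of 8.30%, shared intergenic regions 7.37% and Etv5-only intronic regions 5.18%, with intervals that overlapped that of the members. Shared promoter regions stood apart at 12.2% (10.6 to 13.9). The strict form CCGGAAGT occurred in 11 members (0.646%) and in 0.278% of windows, or 0.447% of windows at matched GC content, whereas 94 shared promoter regions held it (6.25%). The short core, GGAA preceded by A or C and followed by A or G, was in 81.2% of members and 73.8% of windows, so it hardly separated them. Reading the ETS letters backwards, as TGAAGGAC or TGAAGGCC, gave 3.58% of members and 3.52% of windows.

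Patterns of RUNX and TEAD factors were also more frequent in members. RUNX factors act with ETS and AP-1 proteins at many enhancers, and TEAD factors are the DNA-binding partners of Yap and Taz. The RUNX pattern (TGTGGTT or TGTGGTC) was found in 545 members (32.0%, 29.8 to 34.3) and 17.6% of windows, and the TEAD pattern (ACATTCC) in 288 members (16.9%, 15.2 to 18.8) and 6.76% of windows. Both shares were above those of Etv4-only intronic regions, at 27.9% (26.0 to 29.7) and 12.7% (11.4 to 14.1), but their intervals overlapped those of shared intergenic regions, at 28.3% (26.2 to 30.4) and 14.7% (13.2 to 16.4). The NF-κB pattern was present in 84 members (4.93%) and 2.31% of windows, but at matched GC content the fold fell to 1.29. The GATA pattern (AGATAA) was in 18.1% of members and in 29.7% of windows. Matched for GC content this ratio was 0.836. The Smad palindrome GTCTAGAC was rare, with 10 members (0.587%, 0.282 to 1.08) and 0.407% of windows.

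The remaining patterns were either similarly frequent in members and windows or rare in both. In members and windows, respectively, the shares were 21.9% and 21.3% for the C/EBP pattern (TTGC, any 2 bases, then AA), 29.8% and 27.1% for the Zeb and Snail pattern (CAGGTG), and 8.74% and 7.49% for the Fox pattern (TGTTTAC). They were 2.52% and 2.82% for SRF, and 2% and 1.79% for Grainyhead-like factors (AACCGGTT or AACTGGTT). Few members held a CRE (TGACGTCA, 0.469% and 0.266%), a CTCF pattern (0.646% and 0.386%) or an NF1 palindrome (0.176% and 0.0304%, from 3 members). A run of 4 GGAA repeats was in 4 members (0.235%) and 0.592% of windows. Matching the windows for GC content turned the direction of 3 of these. The ratio of members to windows went from 1.10 to 0.832 for Zeb and Snail, from 1.67 to 0.934 for CTCF and from 0.896 to 1.06 for SRF. With matched windows it was 1.25 for C/EBP, 1.50 for Fox, 1.30 for Grainyhead-like, 1.24 for CRE, 4.42 for NF1 and 0.405 for the GGAA repeats.

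Members without an AP-1 match were not poor in the other patterns. RUNX was found in 35.1% of the 780 members without AP-1 (31.8 to 38.6) and in 29.3% of the 924 with it (26.4 to 32.4). TEAD was found in 20.3% (17.5 to 23.3) and 14.1% (11.9 to 16.5), respectively. In windows, the presence of AP-1 changed these shares little, from 17.5% to 18.3% for RUNX and from 6.74% to 6.99% for TEAD. ETS was equally frequent in members with AP-1 (8.01%) and without it (7.95%). A total of 369 members (21.7%) held none of the 4 patterns, compared with 68.3% of windows. After the AP-1 letters were hidden, the 8-base words most over-represented in the central 200 bp differed from AP-1 by 1 letter, such as GTGATTCA in 75 members (7.71-fold) and GTGACTAA in 58 (6.32-fold). CACATTCC, which contains the TEAD pattern, followed in 68 members (4.69-fold).

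AP-1 matches were concentrated at the middle of the members. Within 100 bp of the midpoint their density was 2.19 per kb, and between 300 and 500 bp it was 0.258 per kb, a ratio of 8.48. The ratio was 2.38 for RUNX and 2.36 for ETS, the latter from 66 matches near the midpoint and 56 farther out. Reversed letters served as a comparison. The reversed ETS pattern had a ratio of 0.606. The reversed AP-1 pattern (ACTCAGT) had a ratio of 1.42, and it can share bases with an AP-1 match. It occurred in 12.6% of members and 8.30% of windows. Among those without AP-1 the shares were 7.56% and 7.52%, and among those with it 16.9% and 17.4%.

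**Figure D2:**
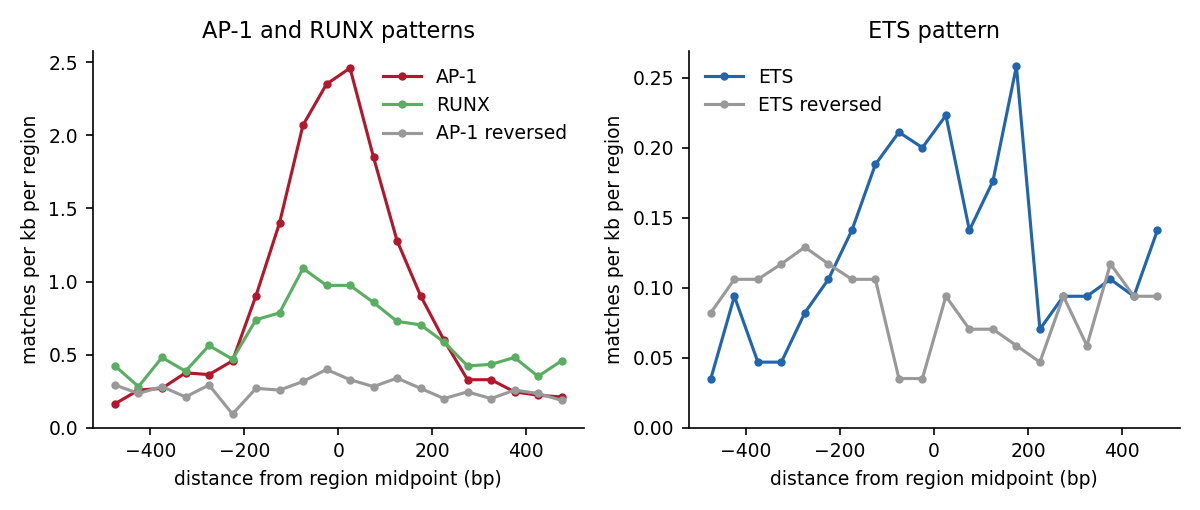
Density of pattern matches around the midpoints of the 1704 members (vertical axis, matches per kb per region, in steps of 50 bp) against distance from the midpoint (bp). AP-1 is highest at the midpoint and RUNX has a lower maximum within 100 bp of it, while reversed AP-1 stays low throughout. ETS matches, on an axis of their own, are few and uneven from step to step, with the highest value in the step centred 175 bp from the midpoint.

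The touching arrangement printed above occurred at 23 of the 1212 AP-1 matches in members (1.90%, 1.21 to 2.83), and at 497 of 156268 matches in windows (0.318%), a 5.97-fold difference. As a share of windows it was 1.35% of members and at most 0.0265% of the background. With GGAA on the other side of AP-1, members had 0 of 1212, which allows a share of up to 0.304%, and windows had 0.220%. The other classes of regions had intervals that overlapped that of the members. Etv4-only intronic regions showed it at 1.54% of their AP-1 matches (0.953 to 2.34), shared promoter regions at 1.31% (0.530 to 2.69), shared intergenic regions at 1.07% (0.573 to 1.83) and Etv5-only intronic regions at 0.888% (0.183 to 2.57). At gaps of up to 20 bp, and without the patterns that share a T with AP-1, the full ETS pattern lay near 9 of 1212 AP-1 matches (0.743%, 0.340 to 1.40), compared with 0.365% in windows, and near 25 of 1211 in shared intergenic regions (2.06%).

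The members ordered by region number differed in sequence from one end of the list to the other. The authors numbered the regions of each list from 1, by a criterion that is not stated, and the median length of members fell from 987 bp to 362 bp between the first and the last of 10 equal groups. The first 40 members held no AP-1 in the central window. The first with a match was the 18669 bp region in Sfi1, number 132, of which 62.4% is multicopy sequence. In the first 50 members the AP-1 share was 12.0% (4.53 to 24.3), and in the other 1654 it was 55.5% (53.1 to 57.9). Over the 10 groups it was 42.1% in group 1, highest in group 5 at 67.6% and lowest in group 10 at 40%. The ETS share was 12.3% in group 1 and 4.12% in group 10.

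The lowest-numbered members also resembled each other. With annotated repeats hidden, 27 of the first 50 aligned to another member over 50 bp or more at 90% identity, compared with 5 of the other 1654. The largest group had 9 members on 8 chromosomes, among them those in Cmss1, Jarid2 and Arhgap21, and another group had 8 members on 7 chromosomes. Groups of 5 and 4 members included regions in Fgfr2, a fibroblast growth factor receptor, and Cd44, the hyaluronan receptor. The 5 members of lowest number were in Gm33838, Cdk8, Cmss1, Chl1 and Gphn. Their Etv5 numbers were also low, between 3 and 35. Without a control library, the part that copies elsewhere in the genome had in these regions was not tested. The central 120 bases of member number 21, the lowest in any gene with 4 or more members, a 9293 bp region of which 33.0% is multicopy, held neither AP-1 nor ETS letters and are printed for that reason.
Gm20388, chr8:123430109-123430228: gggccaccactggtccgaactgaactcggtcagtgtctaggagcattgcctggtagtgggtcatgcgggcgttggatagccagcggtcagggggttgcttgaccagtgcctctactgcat

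**Figure D3:**
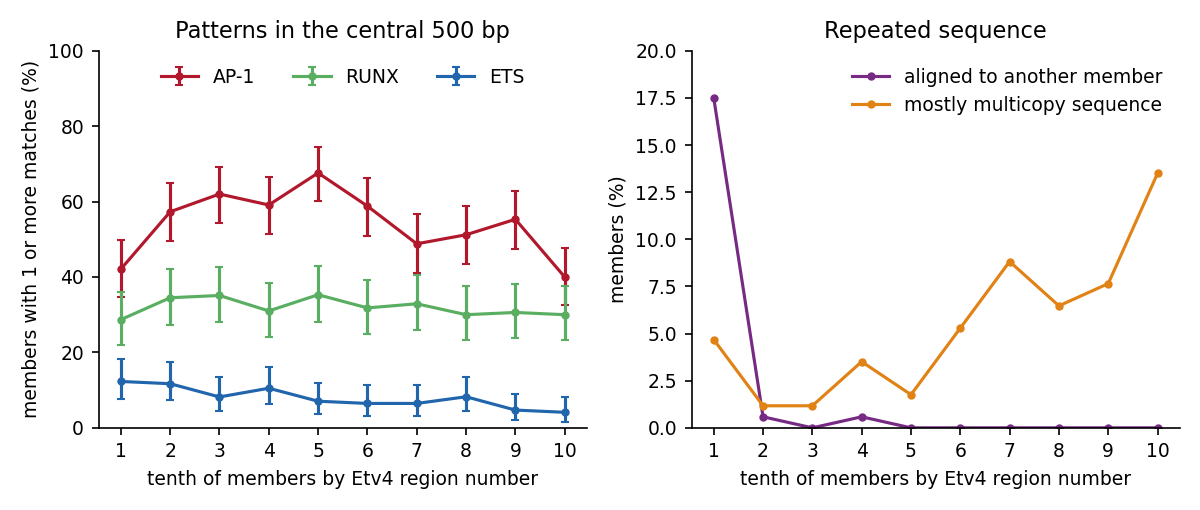
Members in 10 groups by Etv4 region number, from the lowest to the highest. The left panel gives the share with AP-1, RUNX and ETS patterns (%, with exact 95% binomial intervals) and the right panel the share aligned to another member and the share of mostly multicopy sequence (%). Aligned members fall almost all in group 1 (17.5%), and mostly multicopy members are most frequent in group 10 (13.5%).

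Repeated sequence was otherwise less common than in introns at large. In the central 500 bp of members, a median of 8.80% of bases were annotated repeats, compared with 21.4% in windows. Members with more than 50% of the 36-base sequences of their whole region present more than once in the genome numbered 92 (5.40%, 4.37 to 6.58). This share was 4.22% in whole Etv4-only and 10.8% in whole Etv5-only intronic regions, and 8.61% in 9381 sampled windows of 500 bp. The central 500 bp of members had a median GC content of 48.0%, compared with 42% in windows.

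The members were placed towards the 5′ part of genes. First introns held 614 members (36%, 33.7 to 38.4), whereas 27.7% of intronic positions that met the rule were in first introns. Introns 5 and later held 438 members (25.7%) and 35.2% of such positions. The excess in first introns was present at each distance from a start, with 43.4% of members against 35.4% of positions at 2 to 5 kb and 28.4% against 22.1% beyond 20 kb. Etv4-only and Etv5-only intronic regions were similar, at 36.7% and 38.3%. The 31 members in Gm20388, a readthrough locus described below, were all counted in its first intron, most of them beyond 20 kb. The first-intron shares without them were not computed. The median distance from a member to the nearest start was 12.0 kb, and that of intronic positions was 15.2 kb. Only 165 members (9.68%) lay beyond 50 kb, compared with 17.6% of positions. Along the intron itself the members were spread widely, with 14.7% in the 20% of its length nearest the 5′ end, where 18% of positions lay, and between 19.2% and 22.6% in each further 20%.

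The members lay in 1173 host genes, of which 948 were protein-coding and 143 lincRNA genes. Of all 16354 protein-coding genes with eligible intron sequence, 5.80% hosted a member. Long genes hosted members more often, from 0.823% of genes with under 10 kb of eligible intron to 29.5% of those with over 200 kb. A single member was found in 867 hosts, 2 in 191, 3 in 67 and 4 or more in 48. The density was 1.80 members per Mb of eligible intron. No member lay in the 4.64 Mb of eligible intron on Y. On the other chromosomes the density ranged from 0.422 per Mb on X and 0.664 on chromosome 14 to 3.09 on chromosome 11 and 3.54 on chromosome 15. The number of copies of each chromosome in the cells was not measured here.

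Hosts often carried regions at their own promoter too. Within 2 kb of a transcript start of the same gene, 142 of 948 protein-coding hosts had a region shared by both lists (15.0%, 12.8 to 17.4). Genes without a member had one in 5.07%, and 3.92% when weighted to the intron lengths of the hosts. For all Etv4 regions the shares were 33.6% in hosts and 13.6% in the others so weighted, and for all Etv5 regions 25.3% and 9.24%.

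The largest number of members, 31, fell in Gm20388, an annotated readthrough locus of 4.43 Mb on chromosome 8. Only 10 of these also lay within another annotated gene, so most would be intergenic without this annotation. Its density was 0.948 per 100 kb of eligible intron, below the 6.73 of Nfatc2 but above the 1.80 per Mb of all eligible introns. Of the other hosts with most members, Nfatc2, Cubn, Bach2 and Dlgap1 had 7 each, and Ahnak, Itgb6, Sgms1, Nsmce2, Camta1 and Fgfr2 had 6. Fgfr2 is annotated with 2388 kb of eligible intron and was the least dense of these, at 0.251 per 100 kb. Nfatc2 is a calcium-regulated transcription factor that binds DNA with AP-1. Its 7 members were in introns 1, 3 and 5, and 5 of them held AP-1, with up to 2 matches. Bach2, a repressor that binds AP-1-like sites, had 5 of 7 with AP-1. Cubn encodes the receptor cubilin, and Dlgap1 a synaptic scaffold protein with a member of 2473 bp, the fifth longest of all. Nsmce2 is a SUMO ligase and Sgms1 a sphingomyelin synthase.

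Among hosts of 4 or more members, density was highest in the lincRNA genes AL805899.1, AL805899.2 and F630040K05Rik. AL805899.1 had 5 members in 24 kb of eligible intron (20.8 per 100 kb), AL805899.2 had 12.3 per 100 kb and F630040K05Rik 10.4. Ahnak, a giant protein of the cell cortex, followed with 9.76, as did Lurap1l with 4 members. Gm35853, an antisense gene, had 8.70, Arhgef18, an activator of RhoA, 8.33, Baiap2, an actin regulator also called IRSp53, 7.92, and Myh9, the heavy chain of non-muscle myosin IIA, 7.41. In Ahnak the 6 members lay between 9052705 and 9074760 on chromosome 19, in introns 5 and 6 of 6, and 5 of them held AP-1. The 4 members of Myh9 were in introns 1 and 3, and 3 held AP-1. AL805899.1 and AL805899.2 lie close together on chromosome 4, between 88909855 and 89039192, so their densities describe the same stretch. AP-1 was found in 2 of the 5 members of AL805899.1. In AL805899.2 it was found in 1 of the 3 clustered members and in none of the others.

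Clusters of 3 or more members, each midpoint within 10 kb of the next, numbered 32 and contained 111 members (6.51%). Each lay within a single host gene. The largest had 6 members, in Dlgap1 (29.1 kb) and Ahnak (22.1 kb), followed by 5 in Ttc39b (14.3 kb) and AL805899.1 (7.40 kb). Itgb6, Cubn and Arhgef18 had clusters of 4, and Gm20388 had 2 such clusters. Smaller clusters included Pmepa1, Ets1, Itgb3, Nedd9, Fbn1, Sdc4 and Rara. AP-1 was found in 54 of the clustered members (48.6%, 39.0 to 58.3) and in 54.6% of the others, so the shares could not be told apart. A total of 1303 members (76.5%) had no other member within 10 kb.

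The genes of 11 lists were then examined, since long introns alone raise the chance of a member. In the list of TGF-β ligands, receptors and Smads, 7 of 35 genes with eligible introns hosted a member (20%, 8.44 to 36.9). All protein-coding genes of the same classes of intron length would give 3.34. Pmepa1 and Smurf1, which restrain the pathway, hosted 3 and 2 members, and Smad3 hosted 2. Ltbp1 and Ltbp2, members of the family of latent TGF-β binding proteins, hosted 3 and 2, the type I receptor Acvr1 hosted 1, and the ubiquitin ligase Nedd4l hosted 1. The list had 5.30 members per Mb of eligible intron, compared with 1.73 over all protein-coding genes.

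The 3 members of Pmepa1 were among the widest. They measured 4545, 2944 and 2416 bp and followed each other across 11 kb of intron 1, from position 173256616 to 173267631 on chromosome 2. None had an AP-1 match in the central 500 bp, and the whole regions held 1, 1 and 0. The shared stretch with Etv5 was shorter, between 644 and 1076 bp. The region of 2416 bp contained the palindrome GTCTAGAC, which 17 of 1704 members held anywhere in the region (0.998%). In Smad3, both members lay in intron 1, 10.1 and 14.7 kb from the nearest start. The first held the touching AP-1 and ETS letters printed above and 2 RUNX matches, and the second held 3 RUNX matches and no AP-1.
Pmepa1, chr2:173258142-173258181: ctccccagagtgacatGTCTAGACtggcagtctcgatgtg

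Integrins had the highest density, 11 members per Mb, and 7 of 25 genes were hosts (28.0%, 12.1 to 49.4; 2.22 from intron length). Most of the 17 members fell in 3 beta subunits. Itgb6 hosted 6, Itgb5 4 and Itgb3 3, and each pairs with the alpha v subunit in receptors for matrix and latent TGF-β. In Itgb6, 4 members formed a cluster in intron 1, between 2.15 and 15.4 kb from the nearest start, and the 2 nearest to it held AP-1. Itga3, Itga6, Itga9 and Itgb2 had 1 each. The Itga9 member and that of Atf2 aligned to each other and were among the first 50 by number.

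Of the AP-1, ETS and RUNX factors, 8 of 39 were hosts (20.5%, 9.30 to 36.5; 2.77 from intron length), with 7.89 members per Mb. Runx1 hosted 4, Ets1 3, Elk3 and Runx2 2 each, and Atf2, Cbfb, Etv6 and Mafk 1 each. The members of Runx1 lay in introns 2, 5, 6 and 7 of 7. AP-1 was present in 2 of them, those in introns 5 and 6. Both members of Elk3, an ETS factor regulated by ERK, held AP-1. For Yap, Taz and Tead genes, 9 of 28 were hosts (32.1%, 15.9 to 52.4; 2.84 from intron length). Wwtr1, which encodes Taz, hosted 4, all in intron 2, Wwc2 3 and Vgll4, a Tead co-repressor, 2.

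AP-1 patterns of members in these genes are printed for the lowest-numbered member with a match, chosen after values were seen, with AP-1 in capitals.
Itgb6, chr2:60700157-60700197: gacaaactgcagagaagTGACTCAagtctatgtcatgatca
Runx1, chr16:92624182-92624222: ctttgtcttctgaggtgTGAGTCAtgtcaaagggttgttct
Wwtr1, chr3:57510412-57510452: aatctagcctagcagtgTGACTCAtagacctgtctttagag

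**Figure D4:**
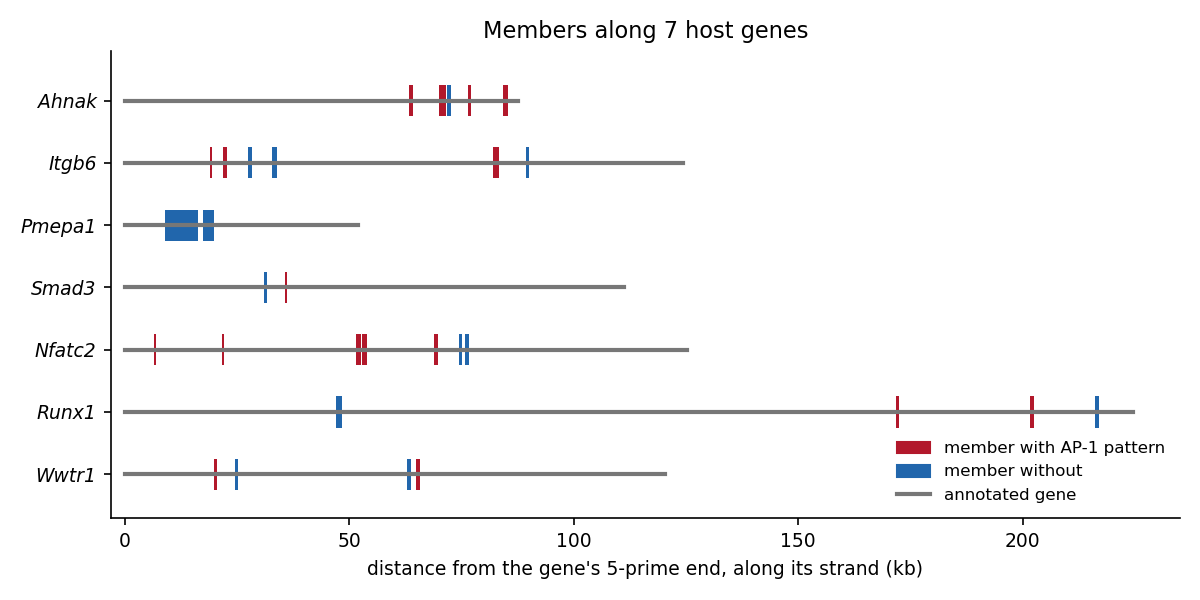
Members along 7 host genes, with distance from the 5′ end of the annotated gene in kb on the horizontal axis. Boxes are members, drawn at least 0.6 kb wide, in red with an AP-1 pattern in the central 500 bp and in blue without. The 3 wide members of Pmepa1 are blue and 2 of them run together at this scale, while those of Ahnak lie in its 3′ part.

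Actin and focal adhesion genes had the largest number of hosts, 17 of 46 (37.0%, 23.2 to 52.5; 6.67 from intron length). Asap1, an Arf GTPase activator of focal adhesions, hosted 5 and Myh9 4. Lpp, Mical2 and Tns3, which act on adhesions or actin, hosted 3 each, and Arhgef28, Bcar1, Bcar3 and Palld 2 each. One of the Lpp members was 95.2% multicopy sequence. Matrix genes and proteases were hosts in 15 of 74 cases (20.3%, 11.8 to 31.2; 5.69 from intron length). Fbn1, which encodes fibrillin, hosted 3, and Col4a2 and Col18a1 2 each. Among the laminin subunits Lama2, Lama5, Lamb1, Lamb3 and Lamc1 had 1 each. For epithelial junction and polarity genes 11 of 46 were hosts (23.9%, 12.6 to 38.8; 4.68 from intron length), with 2 members each in Jup (plakoglobin), Pkp1 (plakophilin) and Ctnna1 (alpha-catenin).

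Ras and ERK pathway genes were hosts in 9 of 38 cases (23.7%, 11.4 to 40.2; 3.42 from intron length), with 1 member each. They included the phosphatase genes Dusp1, Dusp5 and Dusp10, and Spred2. The Dusp1 member lay in intron 3 of a long annotated transcript, 6.87 kb from the nearest start, and held AP-1. EMT transcription factors had 4 hosts of 21 (19%, 5.45 to 41.9; 1.83 from intron length). These were Zeb1, Zeb2, Twist2 and Tcf4 with 1 member each. The member of Zeb2 held 2 AP-1 matches, those of Twist2 and Tcf4 1, and that of Zeb1 none. Among EGF receptors and ligands only Ereg and Nrg1 of 17 genes were hosts (11.8%, 1.46 to 36.4; 1.73 from intron length). A comparison list of long synaptic and neural genes had 9 hosts of 50 (18%, 8.58 to 31.4), fewer than the 14.6 from intron length, and 0.306 members per Mb. The last length class held all genes with over 200 kb and this list had a median of 777 kb, so its lengths were not fully matched. Cdh18, Csmd3, Gria1 and Grik2 hosted 2 each. Both members of Grik2 and those of Cacna2d1 and Astn2 were mostly multicopy sequence.

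**Figure D5:**
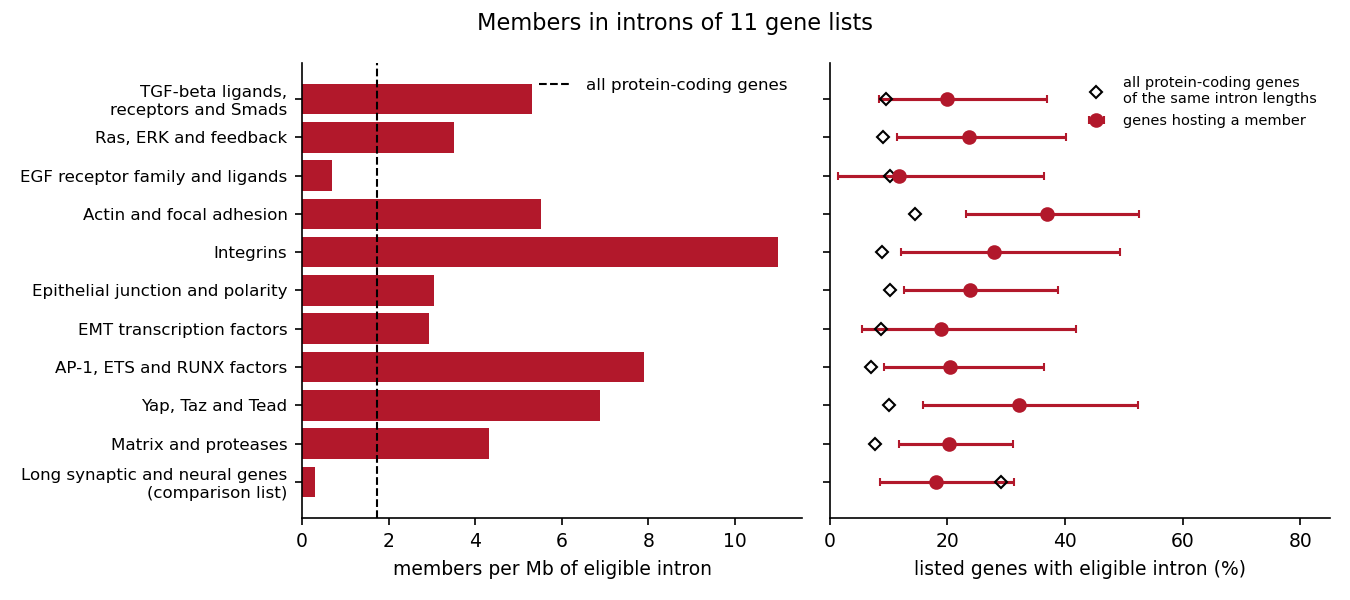
Members in introns of 11 gene lists. The left panel gives members per Mb of eligible intron, with 1.73 for all protein-coding genes as a dashed line. The right panel gives the share of listed genes that host a member (dots, exact 95% binomial intervals) and the share in all protein-coding genes of the same classes of intron length (diamonds). Integrins are highest on the left. On the right, only the dot of the neural list lies to the left of its diamond, and the diamonds of the neural, TGF-β, EMT and EGF lists are within the intervals.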

How the data were processed

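The ChIP-seq lists of called regions of the Etv4 and the Etv5 library were used. Per the labels and the study's methods, chromatin of EpRas cells was precipitated, libraries were amplified by PCR, and reads were mapped to mm10. The submitters' processing notes name Bowtie without a version, and the methods for the accessibility libraries, to which those for ChIP-seq refer, state reads cut to 36 bases and bowtie2. The authors called regions in each library with the one-sample mode of CisGenome, without a control library. The study's methods give a lenient p-value cutoff for this step, so the lists can hold weakly enriched regions. The deposited BED score was the same for every region and was not used, and the other deposited columns were positions and a region number. Read counts were not in these lists, so depth and its effect on their lengths are unknown.

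Members, gene lists, patterns and rules were chosen with earlier results of these data known. Genes, transcripts and exons came from GENCODE vM21 and sequence from GRCm38, the assembly of mm10. Coordinates count from 1. The host was the protein-coding gene holding the midpoint, then the longest gene, and the intron that of its longest transcript. Eligible intron was counted at every 500 bp (1891572 positions, 946 Mb), and the 1876015 positions with known bases outside all regions served as background windows. Patterns were searched on both strands in the central 500 bp. GC matching used bins of 2 percentage points. Multicopy sequence was counted over 36-base sequences on the chromosomes and unplaced contigs. Members were aligned to each other with blastn 2.17.0. Gene lists were compared with all protein-coding genes in 6 classes of eligible intron length, the last of them open above 200 kb.

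Named genes were the 10 hosts with most members (ties by density, which placed Fgfr2 after them), the 10 densest hosts of at least 4, listed genes with 2 or more members, and every host of the TGF-β, EMT and AP-1, ETS and RUNX lists. Named regions were the 5 lowest-numbered, the 5 longest and the 5 largest clusters. Others were named after their values were seen. The overlap and pattern searches were tested on simulated data, where 1000 of 1000 pairs of regions and all 21 patterns were called correctly. Intervals came from scipy 1.17.1 and plots from matplotlib 3.10.9, and the other steps ran in Python 3.11.15 with pandas 2.3.3, numba 0.67.0 and numpy 2.4.6.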

Additional observations from a re-analysis of the deposited data

How the results depend on the processing

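Of 32 alternative values, 20 stayed within the interval of the reported value or within 1.5 times a count, and 12 moved. The number of members ranged from 1315 with a limit of 5 kb from a start to 1880 with 1 kb. The share of overlapping Etv4 regions that were members moved from 33.1% to 36.5% at 1 kb, to 25.5% at 5 kb and to 34.6% when 50% of both regions had to overlap. The AP-1 share was 36.1% in windows of 200 bp (11.3-fold over background), 57.1% without mostly multicopy regions and 57.6% in the first 50% of members by region number. The ETS share was 3.46% in windows of 200 bp (2.35-fold), 0.646% with the strict and 81.2% with the loose pattern, and 9.98% in the first 50% by number. Clusters numbered 20 when neighbours had to lie within 5 kb. The median distance to a start was 19.5 kb when only starts of protein-coding genes counted, and that of intronic positions was then 27.6 kb. Leaving out the first 50 members by number, or Gm20388 as a host, were alternatives chosen after seeing the data, and gave an AP-1 share of 55.5%, an ETS share of 7.92% and 1180 host genes.

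No paired analysis was possible because 1 library per antibody leaves nothing to pair, and for the same reason no replicate was left out. The lists give no height or p-value per region, so only the region number served for a stricter list. The depth of both libraries is unknown, which limits every comparison between Etv4 and Etv5.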
